A study of Homo sapiens with 6 samples.

Results

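Granzyme B (GZMB) and 8 further genes of the cytotoxic granule were followed through RNA-seq libraries of lymphoma cells: the granzymes GZMA, GZMH and GZMM, perforin (PRF1), serglycin (SRGN), cathepsin C (CTSC), the granule membrane protein gene NKG7 and the granzyme B inhibitor gene SERPINB9. These 9 genes of the 23834 measured were chosen by name, with the level of GZMB in these libraries already known, so the comparisons of resistant cells with the libraries labelled WT are a description and carry no test. The cells were DOHH2, a line representing follicular lymphoma, and DAUDI, a line representing Burkitt lymphoma, both from ATCC per the labels. Each line was sequenced as ibrutinib-resistant cells, as idelalisib-resistant cells and as a culture labelled WT, 1 library of polyA RNA each and 6 in all, with no replicate library and no clone, dose or exposure time given in the labels. Ibrutinib blocks the kinase BTK and idelalisib the delta isoform of PI3K, kinases that relay signals of the B cell receptor. Values are FPKM, which count fragments relative to transcript length and to all mapped fragments of a library, summed per gene over its isoforms.

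Granules of killer lymphocytes are secretory lysosomes that hold granzymes, a family of serine proteases, bound to the proteoglycan serglycin. Cathepsin C removes a dipeptide from granzyme precursors and so activates them, perforin makes pores that let granzymes into a target cell, and granzyme B then cleaves caspases and BID. SERPINB9 inhibits granzyme B and protects the cell that makes it. T and NK cells are the usual source of the whole set, but plasmacytoid dendritic cells and activated human B cells can make granzyme B, B cells after interleukin-21, with little or no perforin.

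Each library labelled WT resembled the other one more than its own line. Across 12337 genes with at least 1 FPKM in 1 library, their Pearson r with each other on log2(FPKM + 1) was 0.958, and 135 genes differed by 1 or more on that scale. Against resistant libraries of the same line r was 0.698 to 0.717, and 3775 to 4301 genes differed. Resistant libraries resembled each other within DOHH2 (r 0.968) and within DAUDI (r 0.943) more than between the lines (0.815 to 0.835). Line, culture and label therefore cannot be told apart in the resistant and WT comparison, and "WT" below means the library so labelled. Depth relative to the DAUDI library labelled WT was 0.936 to 1.42, the highest being the ibrutinib-resistant DAUDI library, and absolute depth is unknown because no counts were used.

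GZMB and GZMH lie next to each other on chromosome 14, GZMB at chr14:25100161-25103432 and GZMH at chr14:25075686-25078926 in hg19, 21.2 kb apart. The 250 bases before each start are shown because these neighbours had the same pattern across libraries at very different levels. They are from RefSeq on GRCh38.p14, a later build than that of the expression tables: chr14:24634191-24634440 for GZMB and chr14:24609686-24609935 for GZMH, both on the minus strand. Capitals mark an AP-1 motif (TGANTCA) and RUNX motifs (TGTGGT, or ACCACA where it is on the other strand).
GZMB: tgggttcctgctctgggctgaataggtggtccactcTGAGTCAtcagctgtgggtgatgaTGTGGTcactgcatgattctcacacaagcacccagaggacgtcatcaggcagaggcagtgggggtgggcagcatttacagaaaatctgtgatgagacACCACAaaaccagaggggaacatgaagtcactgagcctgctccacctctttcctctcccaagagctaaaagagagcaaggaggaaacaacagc
GZMH: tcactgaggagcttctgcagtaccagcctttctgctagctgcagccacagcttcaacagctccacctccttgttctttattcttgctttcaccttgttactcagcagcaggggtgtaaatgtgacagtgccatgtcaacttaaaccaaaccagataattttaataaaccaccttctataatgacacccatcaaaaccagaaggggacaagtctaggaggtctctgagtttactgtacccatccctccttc

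The motif search covered 250 bases before and 50 after each start, on both strands, and its motifs do not overlap one another in GZMB. The GZMB promoter held 1 AP-1 match, starting at -214, and 2 RUNX matches, at -190 and -93; the GZMH promoter held none. An AP-1 match was present in 7.71% and a RUNX match in 13.1% of all 35116 promoters in the table. GZMA and PRF1 had 1 RUNX match each, and CTSC, SERPINB9 and NKG7 had none of either motif. None of these 7 promoters held the cyclic AMP response motif TGACGTCA (1.85% of promoters) or the STAT motif TTCNNNGAA (7.66%). SRGN and GZMM were not in the promoter table. The matches are a description of letters and not evidence of binding. The longest run shared by the GZMB and GZMH promoters was 10 bases.

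GZMB, the granzyme that starts caspase cleavage in target cells, was among the most abundant mRNAs of both libraries labelled WT and close to 0 in every resistant library. In DOHH2 it was listed at 0 FPKM in ibrutinib-resistant and 0.0420 FPKM in idelalisib-resistant cells, against 554 FPKM in the WT library, where it ranked 85th among the 12337 genes. In DAUDI it stood at 0.113 FPKM in ibrutinib-resistant and 0.155 FPKM in idelalisib-resistant cells, against 451 FPKM and rank 92 in the WT library. The groups did not overlap: the lower WT value was 2916 times the highest resistant value. On the log2(FPKM + 1) scale the differences from WT were -9.12 and -9.06 in DOHH2 and -8.67 and -8.61 in DAUDI, ibrutinib before idelalisib. Both drugs in a line share 1 WT library, so these are not independent. In bulk RNA, fewer cells with a transcript and less transcript per cell cannot be told apart. The deposited bounds do not enclose the high values: 396 to 415 FPKM for the 554 FPKM and 326 to 343 FPKM for the 451 FPKM, so the level is less certain than its contrast with values under 1 FPKM.

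GZMH, a granzyme with chymotrypsin-like activity, followed GZMB at a far lower level. In DOHH2 it was listed at 0 FPKM in both resistant libraries, against 12.5 FPKM in the WT library. In DAUDI it stood at 0.0266 FPKM in ibrutinib-resistant cells and was listed at 0 in idelalisib-resistant cells, against 8.26 FPKM in the WT library. All resistant values lay below both WT values, and GZMH amounted to 2.25% of the GZMB level in the DOHH2 WT library and 1.83% in the DAUDI WT library. These GZMH values are uncertain, since its transcript resembles that of GZMB. The GENCODE v29 transcripts were identical at 77.7% of 896 aligned bases, their longest shared run was 106 bases, and 57 of 860 windows of 50 bases in GZMH also occur in GZMB. How far GZMB reads add to the GZMH value was not tested. The longest isoform, NM_033423, made up 90.6% of GZMH in the DOHH2 WT library and 96.6% in the DAUDI WT library.

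GZMA and GZMM, the granzymes that cleave after basic residues and after methionine, were not detected at 1 FPKM in any library and did not pass the filter. GZMA, a tryptase that is abundant in T and NK cells, was listed at 0 in the 3 DOHH2 libraries and in the DAUDI WT library, and stood at 0.237 FPKM in ibrutinib-resistant and 0.162 FPKM in idelalisib-resistant DAUDI cells. GZMM stood at 0.0841 FPKM in ibrutinib-resistant DOHH2 cells, 0.158 FPKM in the DAUDI WT library and 0 in the others. GZMB was thus 97.8% of the summed FPKM of the 5 granzymes in the DOHH2 WT library and 98.2% in the DAUDI WT library, counting GZMB, GZMA, GZMH, GZMM and GZMK.

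**Figure D1:**
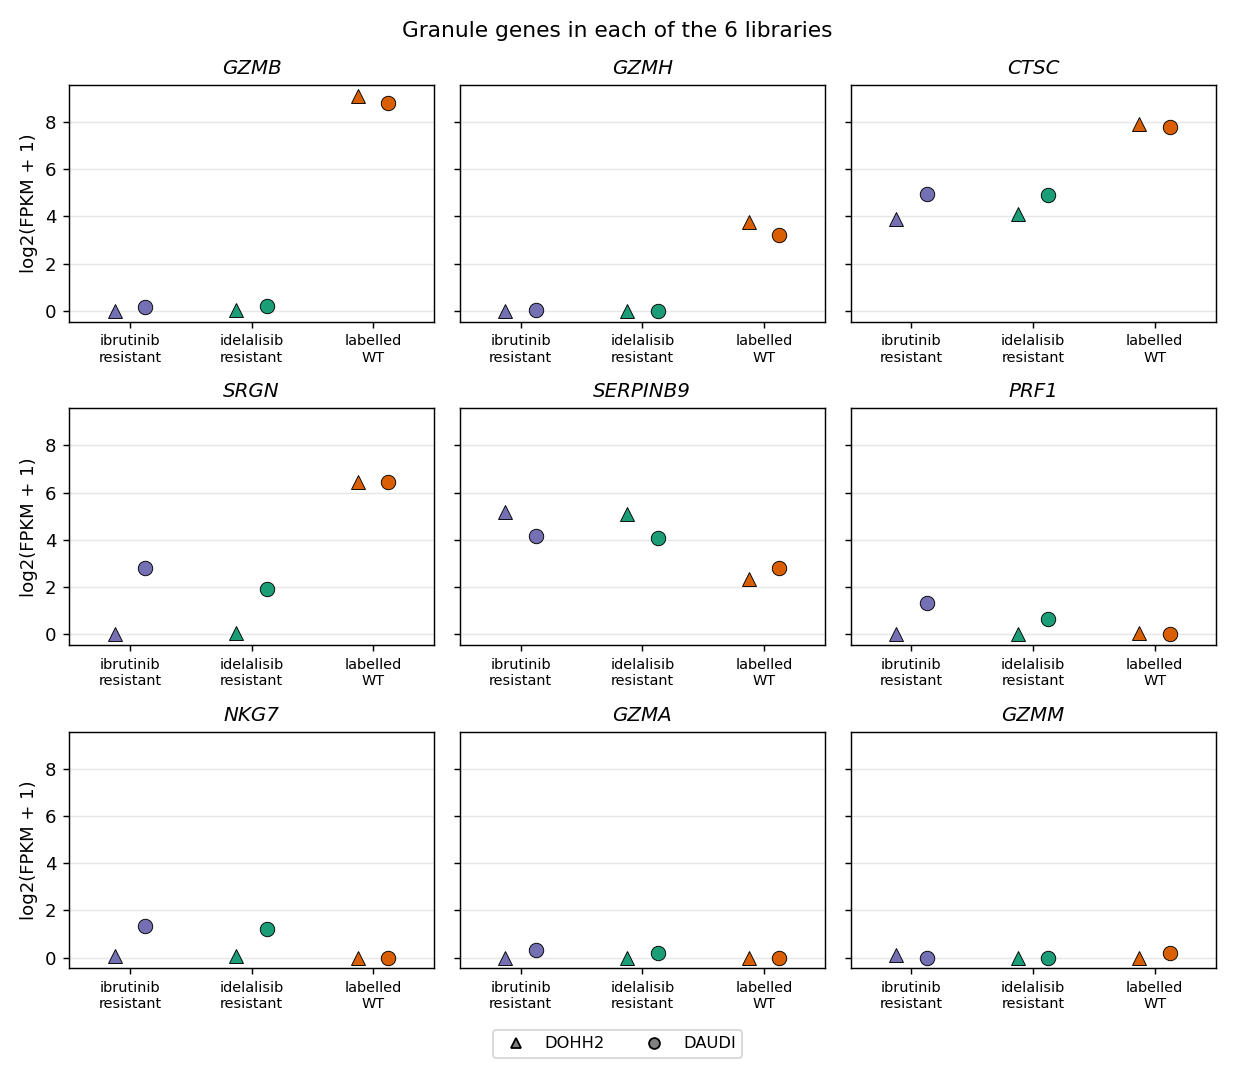
Level of each granule gene, as log2(FPKM + 1), in each of the 6 libraries (triangles DOHH2, circles DAUDI, 1 point per library). GZMB, GZMH, CTSC and SRGN are highest in both libraries labelled WT, SERPINB9 is lowest there, and PRF1 and NKG7 reach 1 FPKM only in resistant DAUDI cells.

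CTSC, the protease that activates granzyme precursors, was expressed in all libraries and was highest in those labelled WT. In DOHH2 it stood at 13.9 FPKM in ibrutinib-resistant and 16.0 FPKM in idelalisib-resistant cells, against 239 FPKM in the WT library. DAUDI cells had 30.3 FPKM of CTSC with ibrutinib resistance and 29.1 FPKM with idelalisib resistance, against 222 FPKM in the WT library. No resistant value reached a WT value, and the lower WT value was 7.33 times the highest resistant one. The differences were -4.01 and -3.82 in DOHH2 and -2.83 and -2.89 in DAUDI, ibrutinib before idelalisib. The isoform mix moved as well: NM_001814, the full enzyme, held 75.0% and 76.9% of CTSC in resistant DOHH2 cells, against 94.3% in the WT library. In DAUDI it held 86.9% and 89.2% in resistant cells, against 94.7% in the WT library. The rest was nearly all NM_148170, whose level was 3.38 and 3.46 FPKM in resistant DOHH2 cells, against 13.1 FPKM in the WT library, so both isoforms were higher in WT and NM_001814 by more.

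SRGN, the proteoglycan that holds granzymes in the granule, was nearly equal in both WT libraries and far lower in resistant cells, most of all in DOHH2. In DOHH2 it was listed at 0 FPKM in ibrutinib-resistant and stood at 0.0331 FPKM in idelalisib-resistant cells, against 85.4 FPKM in the WT library. DAUDI cells had 5.96 FPKM of SRGN with ibrutinib resistance and 2.74 FPKM with idelalisib resistance, against 86.3 FPKM in the WT library. The lower WT value was 14.3 times the highest resistant one. The differences were -6.43 and -6.39 in DOHH2 and -3.65 and -4.54 in DAUDI.

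SERPINB9, the inhibitor of granzyme B, ran opposite to it. In DOHH2 it stood at 34.8 FPKM in ibrutinib-resistant and 33.4 FPKM in idelalisib-resistant cells, against 4.14 FPKM in the WT library. DAUDI cells had 16.8 FPKM with ibrutinib resistance and 15.9 FPKM with idelalisib resistance, against 5.91 FPKM in the WT library. All 4 resistant values exceeded both WT values, and the libraries with the most GZMB had the least SERPINB9. The differences were 2.80 and 2.75 in DOHH2 and 1.36 and 1.29 in DAUDI. The DAUDI differences fell just under 1 with a pseudocount of 5. Of its 6 values, 3 lay above their own deposited upper bounds, among them both resistant DOHH2 values.

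PRF1 and NKG7 did not accompany GZMB. PRF1, the pore-forming protein that delivers granzymes, was listed at 0 in ibrutinib-resistant DOHH2 cells, stood at 0.0124 FPKM in idelalisib-resistant DOHH2 cells, and at 0.0248 FPKM in the DOHH2 WT library. In DAUDI it stood at 1.52 FPKM in ibrutinib-resistant and 0.547 FPKM in idelalisib-resistant cells and was listed at 0 in the WT library. NKG7, a granule membrane protein needed for efficient degranulation in mouse, stood at 0.0501 and 0.0494 FPKM in ibrutinib-resistant and idelalisib-resistant DOHH2 cells and was listed at 0 in the DOHH2 WT library. In DAUDI it stood at 1.51 FPKM and 1.31 FPKM in ibrutinib-resistant and idelalisib-resistant cells and was listed at 0 in the WT library. Both genes thus passed the filter through resistant DAUDI cells only, at levels near 1 FPKM, and were near or at 0 where GZMB was high.

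**Figure D2:**
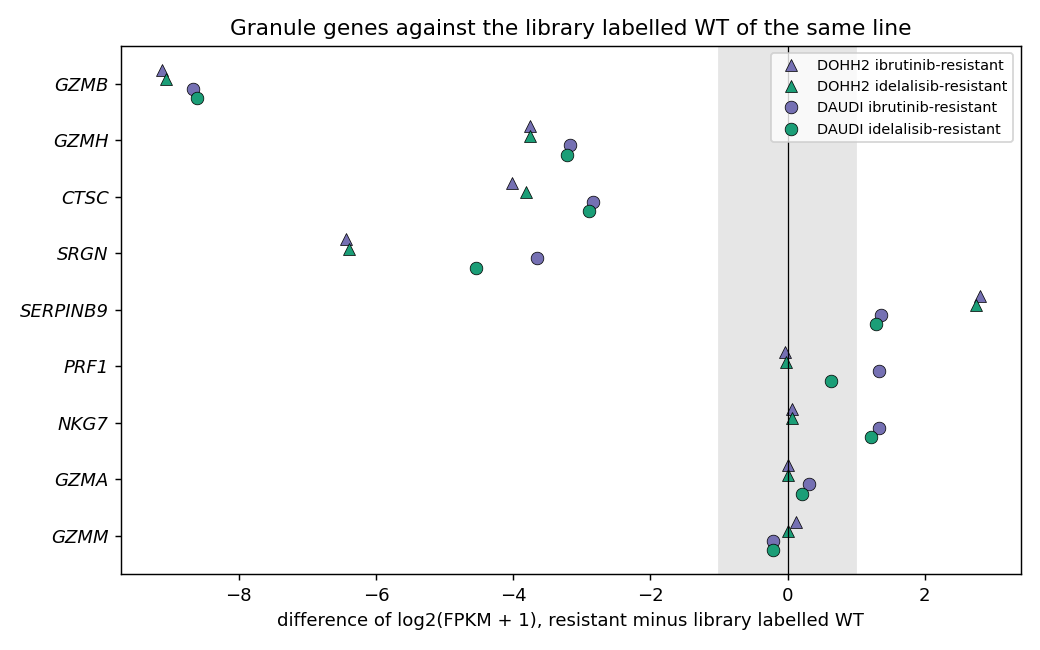
Difference of log2(FPKM + 1) between each resistant library and the library labelled WT of the same line, for the 9 granule genes (triangles DOHH2, circles DAUDI; the grey band spans -1 to 1). GZMB, GZMH, CTSC and SRGN lie left of the band in all 4 comparisons, and SERPINB9 lies right of it.

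With a difference of at least 1 on the log2(FPKM + 1) scale counted as a call, 7 of the 9 genes could be counted, since GZMA and GZMM did not pass the filter. In ibrutinib-resistant DOHH2 cells 1 was higher and 4 were lower than in WT, where 14.9% and 15.7% of all 12337 genes were so called. In idelalisib-resistant DOHH2 cells the counts were again 1 and 4 (16.0% and 15.7% of all genes). In ibrutinib-resistant DAUDI cells 3 were higher and 4 lower (20.2% and 14.6%), and in idelalisib-resistant DAUDI cells 2 were higher and 4 lower (15.3% and 15.8%). Scaling by the median of ratios turned the balance over all genes in the ibrutinib-resistant DAUDI comparison to 1899 higher and 2205 lower, against 2497 and 1804 as deposited, and left these member counts as they were. The 4 lower genes were GZMB, GZMH, CTSC and SRGN throughout. SERPINB9 was higher in every comparison, NKG7 in both DAUDI comparisons and PRF1 in the ibrutinib-resistant DAUDI comparison. Over both lines, 4 members had all 4 resistant values below both WT values, a pattern of 25.5% of all genes, and 2, SERPINB9 and NKG7, had all 4 above, a pattern of 33.3%. GZMB and GZMH passed the filter through the WT libraries alone, and PRF1 and NKG7 through resistant DAUDI cells alone, which limited the direction of their calls. The members were chosen with this contrast known, so the counts describe them and test nothing.

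The summed FPKM of the 9 genes was 48.8 and 49.6 in ibrutinib-resistant and idelalisib-resistant DOHH2 cells, against 895 in the WT library. In DAUDI it was 56.4 and 49.9 in ibrutinib-resistant and idelalisib-resistant cells, against 774 in the WT library. CTSC and SERPINB9 made up most of the sum in resistant cells, and GZMB and CTSC in the WT libraries.

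The libraries labelled WT hardly differed from each other in these genes. In the DOHH2 WT library against the DAUDI WT library, 0 of 7 members were called, where 0.608% of all genes were higher and 0.486% lower by 1 or more. Between the drugs, 0 of 7 members were called in ibrutinib-resistant against idelalisib-resistant cells of DOHH2 (0.665% of all genes higher, 0.413% lower) and 0 of 7 in DAUDI (2.20% higher, 1.31% lower). The member closest to a call was SRGN in DAUDI, at 5.96 FPKM in ibrutinib-resistant and 2.74 FPKM in idelalisib-resistant cells, a difference of 0.90. PRF1 in the same cells, at 1.52 against 0.547 FPKM, differed by 0.70. Both passed 1 with a pseudocount of 0.1. With 1 library per culture these comparisons have no replicate check.

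The 4 resistant libraries allowed a test between the lines that leaves out the libraries labelled WT, with limma on log2(FPKM + 1), the drug as a second term and 1 residual degree of freedom. It takes the resistant cultures of a line as its replicates. With limma and Benjamini-Hochberg adjustment over 12337 genes, 1 of 7 members was higher in resistant DOHH2 than in resistant DAUDI cells (7.04% of all genes) and 2 were lower (8.48%). SERPINB9 was higher by 1.02 ± 0.13 (SE; 95% interval 0.61 to 1.43; adjusted p = 0.0359), with both DOHH2 values above both DAUDI values. SRGN was lower, at -2.33 ± 0.29 (interval -3.26 to -1.39; adjusted p = 0.0365), again with no overlap. NKG7 also counted as lower, at -1.20 ± 0.07 (interval -1.42 to -0.98; adjusted p = 0.0128), but it entered the test only because it passed 1 FPKM in the resistant DAUDI libraries, so its direction was fixed by the filter and its p is no support. When a library was left out, the term for the drug had to be dropped too, and the lone library of a line was assumed to vary like those of the other line. Without either DOHH2 library the adjusted p of SERPINB9 was then 0.0971 or 0.107 and that of SRGN 0.144 or 0.152, and both no longer passed; with all 4 libraries and no drug term they were 0.00796 and 0.0235. Without a filter on low values 0 of the members passed, with an adjusted p of 0.151 for NKG7; over all alternatives its adjusted p ran from 0.00173 to 0.151, that of SERPINB9 from 0.00796 to 0.151 and that of SRGN from 0.00327 to 0.220 (limma with Benjamini-Hochberg adjustment).

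CTSC and PRF1 had intervals below 0 in this comparison but missed the threshold over all genes, and PRF1, like NKG7, had passed the filter through a resistant DAUDI library. CTSC differed by -0.95 ± 0.15 (interval -1.43 to -0.47; adjusted p = 0.0515, limma with Benjamini-Hochberg adjustment), and PRF1 by -0.97 ± 0.22 (interval -1.67 to -0.27; adjusted p = 0.0851). GZMB differed by -0.15 ± 0.03 (interval -0.26 to -0.04; adjusted p = 0.0858) and GZMH by -0.02 ± 0.03 (interval -0.12 to 0.09; adjusted p = 0.716), both at values under 0.2 FPKM.

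**Figure D3:**
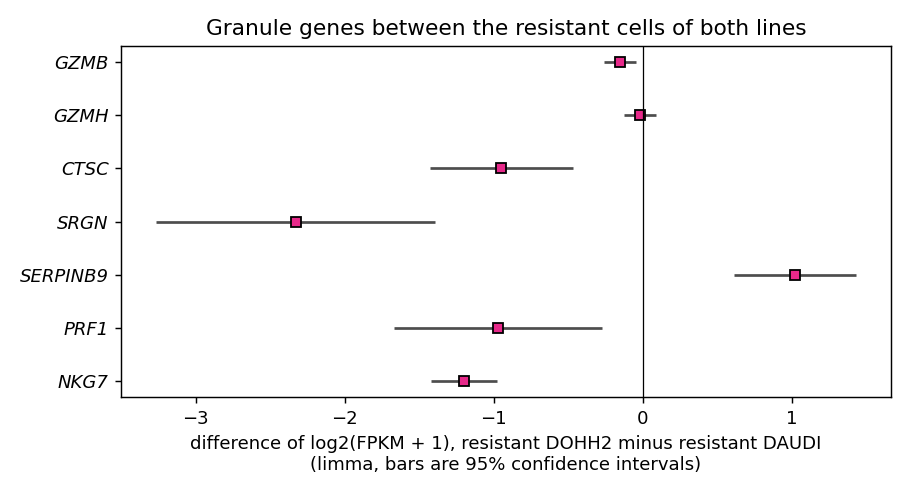
Difference of log2(FPKM + 1) between resistant DOHH2 and resistant DAUDI libraries for the 7 granule genes that passed the filter (limma; points are estimates, bars 95% confidence intervals). SERPINB9 is the only gene right of 0; SRGN lies furthest left, at -2.33.

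The genes named as running most like GZMB over the 6 libraries were not granule genes. By Pearson r on log2(FPKM + 1), among 6893 genes with 10 FPKM or more in 1 library and an isoform of 300 nt or more, they included CT45A2, a cancer/testis antigen gene, the extracellular matrix gene EMILIN2, the myeloid nuclear antigen gene MNDA, LOC645638 and CABLES1, with r of 0.99994 to 0.99999. MNDA, for example, was listed at 0 in both resistant DOHH2 libraries against 137 FPKM in the WT library, and stood at 0.0407 and 0.0927 FPKM in ibrutinib-resistant and idelalisib-resistant DAUDI cells against 124 FPKM in the WT library. An r of 0.99 or more with GZMB was shared by 193 genes, 2.8% of those compared. Among the granule genes r with GZMB was 0.997 for GZMH, 0.975 for CTSC, 0.934 for SRGN, 0.420 for GZMM, -0.440 for PRF1, -0.477 for GZMA, -0.529 for NKG7 and -0.920 for SERPINB9. These are descriptions over 6 libraries from 2 lines, with no test.

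Beyond GZMH, the neighbours of GZMB on chromosome 14 did not share its pattern. CTSG and CMA1, serine protease genes of neutrophils and mast cells that lie 54.7 and 122.7 kb away on the GZMH side, did not exceed 0.167 FPKM and 0.0528 FPKM in any library. On the other side STXBP6, a syntaxin-binding protein gene 177.9 kb away, stood at 0.153 and 1.88 FPKM in ibrutinib-resistant and idelalisib-resistant DOHH2 cells, against 5.61 FPKM in the WT library. In DAUDI it ran the other way, at 20.9 and 24.6 FPKM in resistant cells, against 3.36 FPKM in the WT library. NOVA1, 1812 kb away, was listed at 0 in all libraries but ibrutinib-resistant DAUDI cells (0.00535 FPKM), and MIR4307 was listed at 0 in all 6.

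Other effector genes of cytotoxic granules were mostly listed at or near 0 FPKM. Of 10 such genes, GZMK, GNLY, CTSW, FASLG, TNFSF10, CTSG, CMA1, ELANE, PRTN3 and AZU1, only TNFSF10 passed the filter. TNFSF10, which encodes the death ligand TRAIL, stood at 1.11 and 1.60 FPKM in ibrutinib-resistant and idelalisib-resistant DOHH2 cells, against 2.10 FPKM in the WT library. In DAUDI it stood at 18.0 and 13.8 FPKM in resistant cells, against 1.93 FPKM in the WT library. GNLY (granulysin), CTSW and FASLG were listed at 0 in all 6 libraries, and GZMK did not exceed 0.0354 FPKM.

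The machinery that builds and moves secretory lysosomes was mostly expressed in all libraries, and its share of calls was near or below that of all genes. Of 25 genes, 23 passed the filter. Against WT, 4 were higher and 3 lower in each resistant DOHH2 library (14.9% to 16.0% of all genes higher, 15.7% lower), 3 and 3 in ibrutinib-resistant DAUDI cells (20.2% and 14.6%), and 1 and 3 in idelalisib-resistant DAUDI cells (15.3% and 15.8%). The medians of -0.21 and -0.21 in DOHH2 and 0.08 and -0.05 in DAUDI lay near those of all genes, 0.03, 0.08, 0.18 and 0.05 in the same order. SYTL1, a RAB27A-binding protein gene, stood at 20.9 and 25.9 FPKM in ibrutinib-resistant and idelalisib-resistant DOHH2 cells against 1.22 FPKM in WT, and at 54.1 and 34.0 FPKM in DAUDI against 0.748 FPKM. HPS4, of a lysosome biogenesis complex, stood at 89.1 and 94.2 FPKM in resistant DOHH2 cells against 8.24 FPKM in WT, and at 13.9 and 9.88 FPKM in resistant DAUDI cells against 7.40 FPKM. IGF2R, a mannose phosphate receptor gene whose product carries enzymes to the lysosome, stood at 6.66 and 6.74 FPKM in resistant DOHH2 cells against 18.3 FPKM in WT, and at 10.6 and 7.47 FPKM in resistant DAUDI cells against 17.7 FPKM. HPS5, of another lysosome biogenesis complex, stood at 9.30 and 10.3 FPKM in resistant DOHH2 cells against 17.9 FPKM, and at 7.28 and 5.93 FPKM in resistant DAUDI cells against 18.7 FPKM. The docking and fusion genes known from human killing defects, named here after their values were seen, ranged widely. RAB27A stood between 0.451 and 1.17 FPKM, UNC13D between 1.12 and 2.44 FPKM, and STX11 did not exceed 0.474 FPKM. STXBP2, the partner of STX11, stood at 21.3 and 23.2 FPKM in ibrutinib-resistant and idelalisib-resistant DOHH2 cells against 31.6 FPKM in WT, and at 11.8 and 10.5 FPKM in DAUDI against 31.9 FPKM.

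Other lysosomal cathepsins and their inhibitors were mixed. Of 14 cathepsin and cystatin genes 9 passed the filter, and against WT 0 were higher and 4 and 3 lower in ibrutinib-resistant and idelalisib-resistant DOHH2 cells, and 1 higher and 2 lower in each resistant DAUDI library, beside 14.6% to 15.8% of all genes lower and 14.9% to 20.2% higher in these comparisons. CTSB, a lysosomal cysteine protease gene, was listed at 0 in all 4 resistant libraries, against 22.2 FPKM in the DOHH2 WT library and 19.6 FPKM in the DAUDI WT library. CTSO was also listed at 0 in all 4, against 7.26 and 6.02 FPKM. CTSB and CTSO passed the filter through the WT libraries alone, so they could not be called higher in resistant cells. CTSS, which processes the invariant chain, stood at 18.0 and 16.5 FPKM in resistant DOHH2 cells against 47.3 FPKM in WT, and at 32.8 and 29.5 FPKM in resistant DAUDI cells against 42.2 FPKM. The inhibitor gene CSTB stood at 77.5 and 55.0 FPKM in resistant DAUDI cells against 22.0 FPKM in WT, and at 27.2 and 24.5 FPKM in resistant DOHH2 cells against 27.7 FPKM. Genes with an estimate marked as failed were left out, but without counts a listed 0 could not be checked and is given only as listed.

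Of 12 other clade B serpin genes only 3 passed the filter, and all 3 did so through the WT libraries alone, so that they lay below WT in resistant cells by that choice. SERPINB1, an inhibitor of neutrophil proteases, stood at 0.538 and 0.155 FPKM in ibrutinib-resistant and idelalisib-resistant DOHH2 cells against 9.39 FPKM in WT, and at 0.805 and 0.568 FPKM in resistant DAUDI cells against 12.4 FPKM. SERPINB6 and SERPINB8 reached 1.40 and 3.19 FPKM in the DOHH2 WT library and 1.67 and 3.03 FPKM in the DAUDI WT library, and did not exceed 0.0572 FPKM in resistant cells.

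Most genes for substrates of granzyme B were expressed in every library. All 14 passed the filter. Against WT, 1 was higher in each resistant DOHH2 library, with 6 lower in ibrutinib-resistant and 5 in idelalisib-resistant cells, and 0 were higher in resistant DAUDI cells, with 4 and 5 lower, beside 14.9% to 20.2% of all genes higher and 14.6% to 15.8% lower. BID, a pro-apoptotic BCL2 family gene whose product granzyme B cuts, stood at 7.91 and 7.90 FPKM in resistant DOHH2 cells against 27.7 FPKM in WT, and at 4.45 and 3.72 FPKM in resistant DAUDI cells against 32.3 FPKM. The initiator caspase gene CASP8 stood at 10.03 and 9.64 FPKM in resistant DOHH2 cells against 32.4 FPKM, and at 4.47 and 10.4 FPKM in resistant DAUDI cells against 27.03 FPKM. CASP10 stood at 0.639 and 0.925 FPKM in resistant DOHH2 cells against 8.56 FPKM, and at 0.923 and 0.375 FPKM in resistant DAUDI cells against 5.60 FPKM. CASP10 passed the filter through the WT libraries alone, so it could not be called higher in resistant cells. Not every gene of the list ran this way. The repair enzyme gene PARP1, named after its values were seen, stood at 225 and 228 FPKM in resistant DOHH2 cells against 78.4 FPKM in WT, and at 127 and 128 FPKM in resistant DAUDI cells against 87.3 FPKM. The summed FPKM of the list was 558 and 567 in resistant DOHH2 cells against 502 in WT, and 468 and 445 in resistant DAUDI cells against 507.

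Many receptors and transcription factors known to induce GZMB were higher in the libraries with GZMB, and others were not. Of 22 genes 20 passed the filter; against WT, 2 were higher and 14 lower in ibrutinib-resistant DOHH2 cells, 4 and 12 in idelalisib-resistant DOHH2 cells, 2 and 11 in ibrutinib-resistant DAUDI cells, and 1 and 10 in idelalisib-resistant DAUDI cells, beside 14.9% to 20.2% of all genes higher and 14.6% to 15.8% lower. The medians were -2.00, -2.09, -1.50 and -1.34 in that order. IRF4, a factor of activated B cells and plasma cells, stood at 0.339 and 0.304 FPKM in ibrutinib-resistant and idelalisib-resistant DOHH2 cells against 357 FPKM in WT, and at 23.5 and 7.06 FPKM in DAUDI against 427 FPKM. PRDM1, which encodes BLIMP1, stood at 0.0583 and 0.0249 FPKM in DOHH2 against 66.7 FPKM, and at 1.35 and 0.749 FPKM in DAUDI against 71.7 FPKM. BATF, an AP-1 family factor gene, stood at 0.0419 FPKM and a listed 0 in DOHH2 against 58.0 FPKM, and at 1.08 and 0.531 FPKM in DAUDI against 64.2 FPKM. The receptor gene IL2RB was listed at 0 in both resistant DOHH2 libraries against 33.7 FPKM, and stood at 0.314 and 0.0347 FPKM in DAUDI against 30.8 FPKM. IL2RB passed the filter through the WT libraries alone, so it could not be called higher in resistant cells. STAT5B, which acts below the IL2RB receptor and was named after its values were seen, ran the other way in all 4 comparisons, at 62.5 and 50.4 FPKM in DOHH2 against 6.80 FPKM, and at 28.6 and 26.8 FPKM in DAUDI against 9.37 FPKM. Also named after their values were seen, TBX21 and EOMES did not pass the filter, and RUNX3 was called in no comparison with WT. TBX21 stood at 0.0482 and 0.0353 FPKM in the DOHH2 and DAUDI WT libraries. In ibrutinib-resistant and idelalisib-resistant DAUDI cells TBX21 stood at 0.389 and 0.283 FPKM. EOMES stood at 0.117 and 0.148 FPKM in the DOHH2 and DAUDI WT libraries and was listed at 0 in resistant cells.

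Interleukin-21 signalling induces granzyme B in human B cells, and 2 of its genes on the same list were picked out after their values were seen. The receptor gene IL21R stood at 2.43 and 5.56 FPKM in ibrutinib-resistant and idelalisib-resistant DOHH2 cells against 55.4 FPKM in WT, and at 18.1 and 9.31 FPKM in DAUDI against 55.4 FPKM. STAT3, which it activates, stood at 11.7 and 10.5 FPKM in DOHH2 against 110 FPKM, and at 12.3 and 8.01 FPKM in DAUDI against 132 FPKM. Both were highest in the WT libraries, with all 4 resistant values below both WT values, a pattern of 25.5% of all genes.

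**Figure D4:**
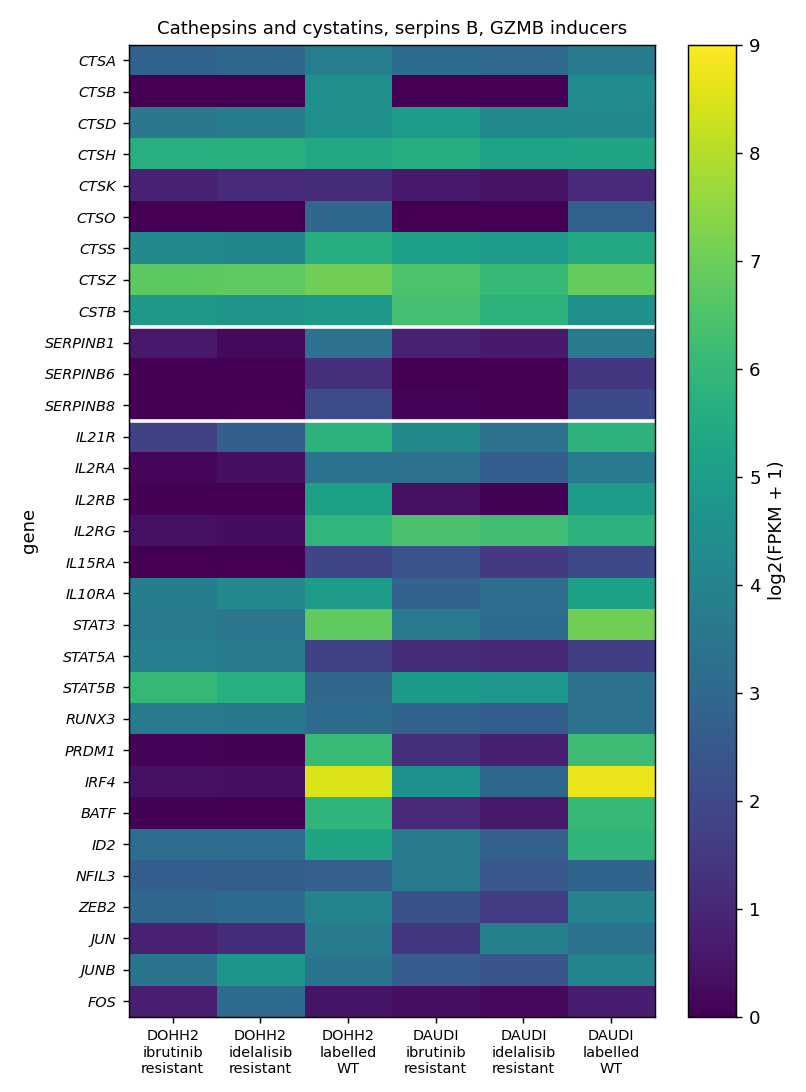
Level, as log2(FPKM + 1), of the cathepsin and cystatin genes, the clade B serpins other than SERPINB9 and the inducers of GZMB that passed the filter and are reported here, in each of the 6 libraries (brighter is higher). IRF4, PRDM1, BATF, IL2RB, CTSB and SERPINB1 are brighter in both columns labelled WT than in the resistant DOHH2 columns, where they are dark. In the WT columns IRF4 is the brightest of them and SERPINB1 the dimmest.

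Between the resistant cells of both lines, the same lists were counted in limma with Benjamini-Hochberg adjustment over all genes, of which 7.04% passed as higher and 8.48% as lower. Of the 20 inducers, 2 were higher and 7 lower in resistant DOHH2 than in resistant DAUDI cells. The lower ones included IRF4 at -3.41 ± 0.48 (SE, adjusted p = 0.0445, limma), PRDM1 at -0.96 ± 0.12 (adjusted p = 0.0382) and BATF at -0.81 ± 0.12 (adjusted p = 0.0491). PRDM1 and BATF did not exceed 1.35 and 1.08 FPKM in these resistant libraries. The 2 higher, named here after their values were seen, were STAT5A at 2.67 ± 0.17 (adjusted p = 0.0143, limma) and STAT5B at 0.99 ± 0.13 (adjusted p = 0.0403). Of the 23 biogenesis and release genes 3 were higher and 1 lower, with HPS4 at 2.86 ± 0.20 (adjusted p = 0.0153, limma). Of the 9 cathepsin and cystatin genes 1, CSTB, was lower, at -1.30 ± 0.15 (adjusted p = 0.0329, limma), and TNFSF10 was lower at -2.84 ± 0.26 (adjusted p = 0.0233). Of the 14 substrate genes 1 was higher, and of the 3 serpins 0 passed in limma (1 had an unadjusted p under 0.05).

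Defining markers of T and NK cells were at or near 0 where GZMB was high, while CD5 and CD4 were highest there. Of 23 such markers, 2 reached 1 FPKM in each WT library, as in each resistant DOHH2 library, against 4 and 3 in ibrutinib-resistant and idelalisib-resistant DAUDI cells. Their summed FPKM was 16.8 and 14.1 in resistant DOHH2 cells against 23.6 in WT, and 13.3 and 10.7 in resistant DAUDI cells against 19.2. CD3D and NCR1 were listed at 0 in all 6 libraries, and CD3E, CD3G and KLRD1 were listed at 0 in both WT libraries. CD3E stood at 2.55 and 1.32 FPKM in ibrutinib-resistant and idelalisib-resistant DOHH2 cells, and at 0.365 and 0.166 FPKM in resistant DAUDI cells. CD8A stood at 0.289 FPKM in the DOHH2 WT library and 0.122 FPKM in the DAUDI WT library. Of the 6 markers that passed the filter, 2 were higher and 2 lower than in WT in each resistant DOHH2 library. In ibrutinib-resistant DAUDI cells 3 were higher and 1 lower, and in idelalisib-resistant DAUDI cells 2 and 2. Over all genes 14.9% to 20.2% were higher and 14.6% to 15.8% lower in these comparisons. With 6 markers, the counts are only a description. CD5, which some B cells also carry, was listed at 0 in both resistant DOHH2 libraries against 15.5 FPKM in WT, and stood at 0.0132 and 0.00905 FPKM in resistant DAUDI cells against 15.1 FPKM. CD4 stood at 0.0227 FPKM and a listed 0 in resistant DOHH2 cells against 7.30 FPKM, and at 1.95 and 1.21 FPKM in resistant DAUDI cells against 3.51 FPKM. KLRK1 ran the other way, at 12.8 and 11.7 FPKM in resistant DOHH2 cells against 0.230 FPKM, and at 4.63 and 4.71 FPKM in resistant DAUDI cells against 0.265 FPKM. NCR3 reached 2.93 and 2.79 FPKM in resistant DAUDI cells against a listed 0 in WT, and did not exceed 0.0455 FPKM in DOHH2. FCER1G, named after its values were seen, reached 2.09 FPKM in ibrutinib-resistant DAUDI cells and stayed under 1 FPKM elsewhere. CD5 passed the filter through the WT libraries alone, and CD3E, KLRK1, NCR3 and FCER1G through resistant libraries alone, which limited the direction of their calls. The part of CD5, CD4 and the others in the GZMB level was not tested.

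Several markers of plasmacytoid dendritic cells, the other cells that make granzyme B with little perforin, were highest in the libraries with GZMB, and others were not. Of the 9 that passed the filter, 0 were higher and 8 lower than in WT in ibrutinib-resistant DOHH2 cells, 0 and 7 in idelalisib-resistant DOHH2 cells, 2 and 5 in ibrutinib-resistant DAUDI cells, and 1 and 5 in idelalisib-resistant DAUDI cells (14.9% to 20.2% of all genes higher, 14.6% to 15.8% lower). Of 12 markers, 5 reached 1 FPKM in each resistant DOHH2 library against 9 in WT, and 6 and 5 in ibrutinib-resistant and idelalisib-resistant DAUDI cells against 7 in WT. Their summed FPKM was 123 and 135 in resistant DOHH2 cells against 1091 in WT, and 396 and 341 in resistant DAUDI cells against 939. Of the surface markers, CLEC4C stood at 1.44 FPKM in the DOHH2 WT library and 0.888 FPKM in the DAUDI WT library, and LILRA4 at 0.761 and 0.686 FPKM, with 0.144 FPKM or less of either in resistant cells. IL3RA, the CD123 gene, stood at 0.159 and 0.0772 FPKM in resistant DOHH2 cells against 9.69 FPKM in WT, and at 0.289 and 0.0720 FPKM in resistant DAUDI cells against 5.77 FPKM. CLEC4C and IL3RA passed the filter through WT libraries alone, so they could not be called higher in resistant cells. Of the same list, and named after their values were seen, NRP1 was listed at 0 in every library and LAMP5 at 0 in both WT libraries. SPIB, TCF4 and TCL1A, which B cells also express, gave large terms of the sum. SPIB stood at 38.9 and 39.3 FPKM in resistant DOHH2 cells against 427 FPKM in WT, and at 26.1 and 25.9 FPKM in resistant DAUDI cells against 351 FPKM. TCF4 stood at 40.2 and 36.4 FPKM against 124 FPKM in DOHH2, and at 24.5 and 19.8 FPKM against 130 FPKM in DAUDI. SERPINF1 stood at 31.7 and 52.3 FPKM against 121 FPKM in DOHH2, and at 0.539 and 0.164 FPKM against 92.8 FPKM in DAUDI. Named after their values were seen, TCL1A and IRF7 did not follow GZMB in DAUDI. TCL1A stood at a listed 0 and 0.0494 FPKM in resistant DOHH2 cells against 390 FPKM in WT, but at 320 and 282 FPKM in resistant DAUDI cells against 344 FPKM. IRF7 stood at 16.2 and 9.88 FPKM in resistant DAUDI cells against 2.75 FPKM in WT. The part of these markers in the GZMB level was not tested.

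All 12 B cell markers were at 1 FPKM or more in all 6 libraries, at levels that differed by gene. MS4A1, which encodes CD20, stood at 263.5 and 249.6 FPKM in ibrutinib-resistant and idelalisib-resistant DOHH2 cells against 429 FPKM in WT, and at 209 and 192 FPKM in DAUDI against 435 FPKM in WT, and CD79A and PAX5 were also expressed in all libraries. VPREB3, a gene of early B cell development, ran opposite, at 314.5 and 310.5 FPKM in DOHH2 against 2.46 FPKM in WT, and at 857 and 562 FPKM in DAUDI against 3.63 FPKM. The kinase gene BLK did likewise, at 83.05 and 81.7 FPKM in DOHH2 against 10.4 FPKM, and at 67.9 and 67.8 FPKM in DAUDI against 5.05 FPKM. Of 15 myeloid and mast cell markers 0 reached 1 FPKM in the DAUDI WT library and 1 in the DOHH2 WT library. Resistant DAUDI cells had 4 and 5 at 1 FPKM or more, among them the lysozyme gene LYZ at 13.0 and 15.0 FPKM against 0.0884 FPKM in WT, and FCN1 at 6.98 and 5.58 FPKM against a listed 0. These DAUDI libraries had the highest PRF1 and NKG7 levels. In resistant DOHH2 cells, where PRF1 and NKG7 were near 0, CD33 was the marker at 1 FPKM or more, at 26.2 and 29.1 FPKM against a listed 0 in WT, and in resistant DAUDI cells it stood at 10.6 and 2.29 FPKM against 0.0326 FPKM. The part of these markers in the PRF1 and NKG7 levels was not tested.

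**Figure D5:**
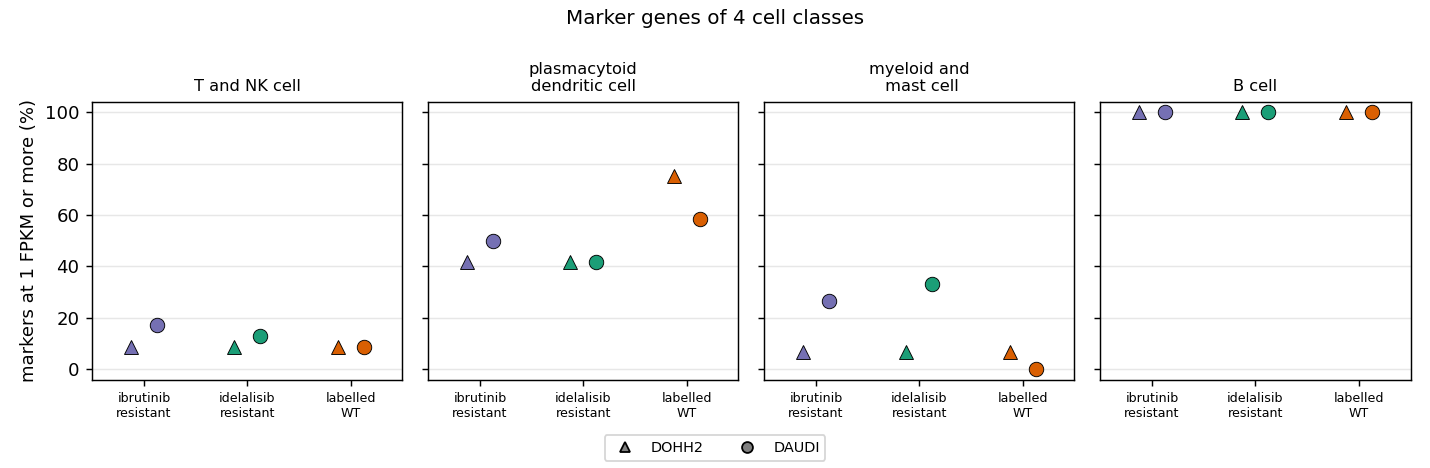
Share of the markers of T and NK cells, plasmacytoid dendritic cells, myeloid and mast cells and B cells at 1 FPKM or more, in percent, in each of the 6 libraries (triangles DOHH2, circles DAUDI). B cell markers are all present in every library, plasmacytoid dendritic cell markers reach 1 FPKM most often in the libraries labelled WT, and T and NK cell markers are few everywhere.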

How the data were processed

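Libraries of polyA RNA were made with a directional kit, per the labels' protocols, 1 for each of 6 cultures. Per the submitters' processing notes, bcl2fastq, cutadapt, TopHat2, Cufflinks and hg19 were used (each version is "not given in the sources used here"). Deposited by the authors were, per library, FPKM for 43490 isoforms, with a coverage signal per isoform that the authors' tables do not scale to library size, a length and lower and upper FPKM bounds, per the file headers. Per library 1670 to 2343 values fall outside these bounds, so the bounds were not used as errors. No read counts were used and absolute depth is unknown; the coverage signal divided by FPKM gave relative depth.

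FPKM were added up per gene name, without 528 unnamed isoforms and without 10 genes whose estimate failed in any library. The 12337 genes that reached 1 FPKM in any library were kept, and differences were taken on log2(FPKM + 1), which understates the change of low genes; 1 or more is a call. With 1 library per group these comparisons have no test. The resistant lines were compared with limma 3.58.1 in R 4.3.3 (trend, drug as an additive term, Benjamini-Hochberg over 12337 genes, two-sided, threshold 0.05); nothing in the labels says that the cultures of a line are independent, so its p-values measure only the spread between these libraries. The script was tested on simulated data.

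The granule genes and the 10 gene lists were chosen with earlier results of these data known. Named are the granule genes, up to 4 genes per list called in most comparisons with WT, the 6 genes most like GZMB, its 3 nearest genes on each side, and defining cell markers; any other name is said to be picked later. Some genes that this rule selects are not reported here. Promoters are from RefSeq (GRCh38.p14), found for 7 of the 9 genes, and transcripts from GENCODE v29. Other settings tried were pseudocounts of 0.1 and 5, no filter or 5 FPKM, rescaling by median of ratios or upper quartile, the main isoform only, no term for the drug, no trend, and leaving out each library.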

Additional observations from a re-analysis of the deposited data

Results flagged for a closer look

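Among the genes of the lists given beside the granule genes, several differed from WT by at least 1 on the log2(FPKM + 1) scale in opposite directions in the lines under the same comparison. With 1 library a group, these differences from WT and their opposite directions were not tested. In the limma comparison of the resistant lines, CD79B (-2.51) and IRF7 (-2.08) passed, and SMPD3 (-2.16), S100A9 (-0.87) and JUNB (1.61) did not. The 5 genes were picked for opposite directions in these libraries, so those results are no separate support. The B cell receptor subunit gene CD79B differed by -1.78 in ibrutinib-resistant DOHH2 cells (64.9 against 226 FPKM in the library labelled WT) and by 1.47 in ibrutinib-resistant DAUDI cells (514 against 185 FPKM in WT). The myeloid marker gene S100A9 differed by -1.20 in idelalisib-resistant DOHH2 cells (listed at 0 against 1.30 FPKM in WT) and by 1.37 in idelalisib-resistant DAUDI cells (1.58 FPKM against a listed 0 in WT). The plasmacytoid dendritic cell marker gene IRF7 differed by -1.04 in ibrutinib-resistant DOHH2 cells (2.11 against 5.40 FPKM in WT) and by 2.19 in ibrutinib-resistant DAUDI cells (16.2 against 2.75 FPKM). SMPD3, on the same list, differed by -1.72 in ibrutinib-resistant DOHH2 cells (0.0174 against 2.35 FPKM in WT) and by 1.83 in ibrutinib-resistant DAUDI cells (5.77 against 0.905 FPKM). Among the inducers of GZMB, the AP-1 gene JUNB differed by 1.28 in idelalisib-resistant DOHH2 cells (25.6 against 10.001 FPKM in WT) and by -1.70 in idelalisib-resistant DAUDI cells (4.11 against 15.6 FPKM).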

How the results depend on the processing

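Counts of granule genes called stayed within 1.5 times in 107 alternatives and moved further in 15. Against WT, the 2 genes higher in idelalisib-resistant and the 3 in ibrutinib-resistant DAUDI cells became 0 with a pseudocount of 5 and 1 among genes of 5 FPKM or more. With a pseudocount of 0.1, 2 were higher in ibrutinib-resistant than in idelalisib-resistant DAUDI cells. Between the resistant lines, the 1 higher gene became 0 without a filter and 0 to 1 when each library was left out. The 2 lower became 5 with a pseudocount of 0.1, 1 with a pseudocount of 5, 0 without a filter, 1 without the trend and 1 to 4 when each library was left out, which also drops the drug term. Without a filter, limma passed 0 of 23834 genes, and 4763 had an unadjusted p under 0.05. The GZMH difference between the lines was 0 without the ibrutinib-resistant DAUDI library and -0.038 without the idelalisib-resistant one. The cause of these changes was not tested. Over all genes limma passed 455 to 1610 higher and 284 to 1945 lower in the other alternatives. Median of ratios scaling moved the median difference of all genes in ibrutinib-resistant DAUDI cells against WT to -0.03, against 0.18 unscaled, and the higher share of called genes to 46.3%, against 58.1%; upper quartile scaling gave 49.8%. No paired analysis was possible because each group has 1 library, so that replicate numbers pair nothing; the line as a block was not fitted to resistant against WT libraries, the contrast the genes were chosen on. Without counts, a listed 0 has no lower limit of detection.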
